A study of Mus musculus with 12 samples.

Results

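Carboxylesterase genes encode serine hydrolases that split ester, amide and carbamate bonds. The genes described here were 10 members of this family, Ces1b, Ces1c, Ces1d, Ces1e, Ces1f, Ces1g, Ces2a, Ces2e, Ces3a and Ces3b. They were found by gene symbol among the 24537 genes of the deposited table. Liver RNA came from 12 male C57Bl/6J mice, which were 6 weeks old at the start and housed individually. Control mice (Con) ate ad libitum. Mice under caloric restriction (CR) received 30% less food, as a fortified version of the control diet, given at a fixed hour near midday. Mice were taken at day 25 or at day 30 of the intervention, with 3 mice in each of the 4 groups, and carried a heavy water label during the last days. The study asked whether hepatic gene expression differs before and after a step to slower protein synthesis that it placed between these time points. The time since the last meal and the fortified diet cannot be told apart from CR in this design. In whole liver, fewer cells of a type and less RNA per cell cannot be told apart.

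In mouse liver, carboxylesterases lie mainly in the lumen of the endoplasmic reticulum of hepatocytes. They activate or inactivate drugs and pesticides that carry an ester, and several of them hydrolyze stored triglyceride, so that its fatty acids can be repacked into very-low-density lipoprotein. The mouse family arose by tandem duplication, and its members remain alike in sequence, which bears on how surely a sequencing read can be assigned to a single gene.

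All 10 genes lie on chromosome 8 (mm10) in 2 clusters. The 6 Ces1 genes stand side by side on the minus strand, from Ces1b (chr8:93056727-93080017) through Ces1c (chr8:93099016-93131283), Ces1d (chr8:93166072-93197804), Ces1e (chr8:93201218-93229619) and Ces1f (chr8:93256236-93279736) to Ces1g (chr8:93302369-93337209). The Ces2 and Ces3 genes stand on the plus strand, in the order Ces2a (chr8:104734003-104741634), Ces2e (chr8:104926260-104934672), Ces3a (chr8:105048599-105058414) and Ces3b (chr8:105083755-105093591). Coding sequences within the Ces1 group were 73.6% to 91.2% identical, with a median of 78.0% over 15 pairs, and Ces1b and Ces1c were the closest of them. Ces2a and Ces2e were 84.0% identical, Ces3a and Ces3b 95.1%, and genes of different groups 62.0% to 66.2%.

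The likeness can be seen in 60 coding bases around the codon of the catalytic serine, an exonic stretch that starts at coding base 634 in Ces1b, Ces1c, Ces1f and Ces1g and at coding base 667 in Ces3a and Ces3b. It is shown for the 2 pairs with the closest sequence, Ces1b with Ces1c and Ces3a with Ces3b, and for the neighbours Ces1f and Ces1g, whose ratio differed most between the diets. Capitals mark bases that differ from Ces1c.
Ces1c: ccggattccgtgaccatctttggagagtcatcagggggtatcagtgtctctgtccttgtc
Ces1b: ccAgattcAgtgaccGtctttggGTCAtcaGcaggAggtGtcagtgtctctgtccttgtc
Ces1f: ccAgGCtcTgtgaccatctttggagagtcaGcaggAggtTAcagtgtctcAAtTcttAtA
Ces1g: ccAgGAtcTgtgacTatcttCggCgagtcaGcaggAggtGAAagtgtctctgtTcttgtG
Ces3a: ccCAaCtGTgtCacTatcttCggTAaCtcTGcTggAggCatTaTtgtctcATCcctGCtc
Ces3b: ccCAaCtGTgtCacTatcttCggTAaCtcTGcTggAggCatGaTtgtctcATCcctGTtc
In this stretch Ces1b differed from Ces1c at 10 bases, Ces1f from Ces1g at 10 and Ces3a from Ces3b at 2. Windows of 100 bases, the length of a read, that occur unchanged in another gene made up 9.81% of the Ces3a transcript and 9.79% of the Ces3b transcript, each found in the other gene. The share was 1.29% for Ces1b and 1.39% for Ces1c, again in each other, and 8.45% for Ces2a, in a gene named Gm7208 that the table does not list. It was 0% for Ces1d, Ces1e, Ces1f, Ces1g and Ces2e. By this share, levels of Ces3a, Ces3b and Ces2a are less certain than those of the other members where the counting split or dropped shared reads. Ces1b is exposed too, because Ces1c has a far higher level and misplaced Ces1c reads would weigh more on Ces1b. Unchanged windows of 50 bases made up 11.59% of the Ces1b transcript and 16.98% of the Ces1c transcript. How reads were placed was not tested.

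Levels are given as FPKM, in which reads on exons are divided by the length of the exons and by library depth. Low FPKM values were whole multiples of a single read, and the depth recovered from them was 15748840 to 23345539 reads per library, with 78.1% to 84.3% of reads on exons. The 10 genes had 1298 to 55688 reads each in a library, which is a counting error of at most 2.78%, while the coefficient of variation within a group of mice was 3.38% to 52.8%. Hepatocyte markers were high in all 12 libraries, with a summed level of 36100 to 63000 FPKM over 5 genes. At day 30 that sum, most of it Alb, was higher in CR mice (52400 to 63000 FPKM) than in Con mice (36100 to 45000), without overlap. The single markers did not all go that way. Alb and Cps1 were higher in CR mice of day 30 without overlap, while Ttr and Serpinc1 overlapped. Apoa1 was lower without overlap (4807 to 5524 against 5860 to 6596 FPKM). Of markers of other organs, the 3 kidney markers summed to at most 0.049 FPKM, with Umod and Kap listed at 0 throughout. Of 4 intestinal markers, Fabp2 was at 33.6 to 66.3 FPKM, while Sis was listed at 0 throughout and Lct and Alpi reached at most 0.023 FPKM. The 4 adipocyte markers summed to 0 to 1.07 FPKM except in a single Con mouse of day 30, at 5.1 FPKM. At day 25 their sum was lower in CR mice (0 to 0.066 FPKM) than in Con mice (0.089 to 1.07). Nearly all of it was Cfd, since Adipoq and Plin1 were listed at 0 and Lep reached at most 0.017 FPKM. The sum of the 3 neutrophil markers was also lower in CR mice at day 25 (0 to 0.123 against 0.492 to 0.767 FPKM), with Ly6g listed at 0 throughout. Neutrophil markers overlapped at day 30, at 0.333 to 1.39 FPKM in Con mice and 0 to 0.764 in CR mice. The 4 stellate cell markers summed to 52.7 to 68.2 FPKM in Con mice and 72.5 to 92.2 FPKM in CR mice. Of these, Lrat and Colec11 overlapped at each day. The sum of the 4 Kupffer cell markers was lower in CR mice at day 25 (14 to 16.5 against 19.8 to 36.6 FPKM), though Cd68 overlapped. At day 30 that sum overlapped (17.7 to 24.3 against 18.9 to 26.4). The sum of the 4 endothelial markers overlapped at day 25 (17.6 to 18.9 in CR mice against 14 to 22.2 FPKM). At day 30 that sum was higher in CR mice (15.1 to 17.7 against 12.3 to 13.5), though Lyve1 overlapped. The sum of the 4 bile duct markers was also higher in CR mice at day 30 (2.83 to 2.88 against 2.07 to 2.63). Of these, Sox9 went the other way, with overlap (0.62 to 1.11 FPKM in CR mice against 1.04 to 1.65 in Con mice). The sum of the 3 erythroid markers overlapped at both days, at 161 to 856 FPKM. One of them, Alas2, was lower in CR mice at each day (11.8 to 28.1 against 31.8 to 46.2 FPKM). The part of these markers in the results was not tested.

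By mean FPKM over the 12 mice, a scale that allows for length, the plasma esterase Ces1c stood first with 1170 FPKM, the place 47 among all genes of the table. Ces1d followed with 464 FPKM, Ces3a with 427, Ces2a with 208, Ces1f with 205 and Ces1g with 108. The lowest were Ces3b with 97.8 FPKM, Ces1e with 69.4, Ces1b with 61.8 and Ces2e with 50.3. Ces1c was above Ces1d in 12 of 12 mice and Ces1f above Ces1g in 12 of 12, and Ces3a was above Ces2a in 11. Other neighbours in this order changed places between mice. Ces1d was above Ces3a in only 6 of 12 mice and Ces2a above Ces1f in 7, and the higher gene led in 8 or 9 mice for Ces1g with Ces3b, Ces3b with Ces1e, Ces1e with Ces1b and Ces1b with Ces2e.

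**Figure D1:**
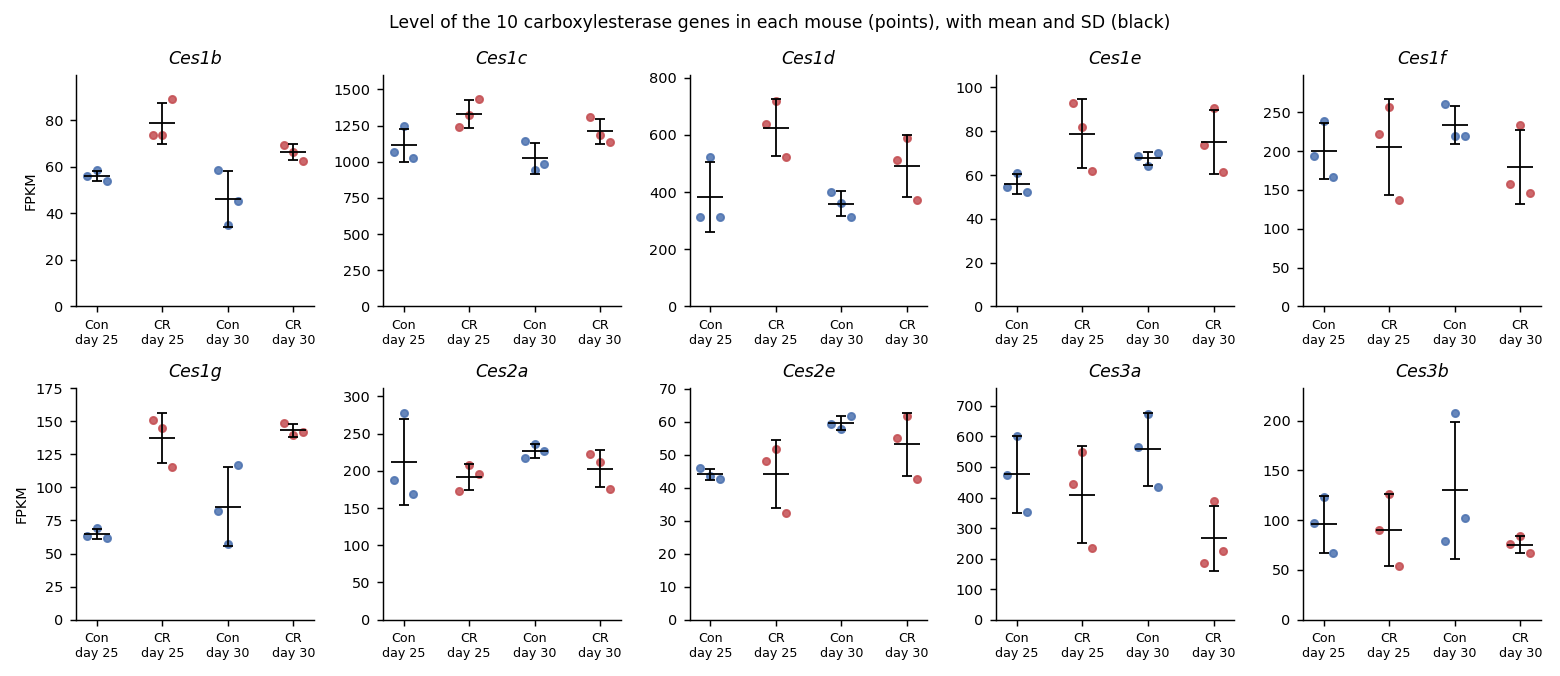
FPKM (vertical axes, linear from 0) of each carboxylesterase gene in every mouse, for Con (blue) and CR (red) at day 25 and day 30, with the mean and SD of 3 mice in black. Ces1g lay at 57.1 to 117 FPKM in the 6 Con mice and at 116 to 151 FPKM in the 6 CR mice, and Ces3a at day 30 fell from a mean of 558 to 266 FPKM.

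CR was first compared with Con at each time point. A gene is called here at a Benjamini-Hochberg adjusted p under 0.1 over the 10593 genes that reached 1 FPKM in 3 or more libraries, a filter that all 10 members passed. Exact permutation of 3 against 3 mice cannot give a p below 0.1, so each call rests on a limma model that shares the spread between mice across genes and groups. The labels give the mice of a group as separate samples, and p-values measure the spread between them. At day 25, 4 of the 10 genes rose under CR, Ces1b, Ces1d, Ces1e and Ces1g, and none fell, while 14.9% of all genes tested were called (5.6% higher and 9.34% lower). At day 30, 2 rose, Ces1b and Ces1g, and 1 fell, Ces3a, against 24.7% of all genes (8.33% higher and 16.4% lower). Over both days with day held in the model, 5 rose, Ces1b, Ces1c, Ces1d, Ces1e and Ces1g, and Ces3a fell, against 40.6% of all genes (14.5% higher and 26.1% lower). All rises among the 10 members were thus in the Ces1 group, which holds most of them. Ces2g, a family member outside the 10, rose too and is given below. The median log2 fold change of the 10 genes was 0.13 at day 25, -0.01 at day 30 and 0.07 over both days, beside -0.04, -0.07 and -0.05 for all genes tested.

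A change of at least 2-fold on the log2(FPKM + 1) scale, at the same adjusted p, was reached by 1 member at day 25, Ces1g, and by 1 at day 30, Ces3a, while 1.48% and 2.21% of all genes reached it. No member reached it over both days, where 1.66% of all genes did. The groups did not overlap for 3 members at day 25, Ces1b, Ces1e and Ces1g, where 28.2% of all genes had groups that did not overlap (10.2% with CR above Con and 18% with CR below). They did not overlap for 3 members at day 30, Ces1b, Ces1g and Ces3a, where the share of all genes was 36.4% (12.1% above and 24.3% below). Ces1b was the only member whose 6 CR mice all lay above its 6 Con mice, a separation that 3.82% of all genes showed upwards and 8.7% downwards, or 12.5% in all. Median-ratio scaling of the libraries moved the share of higher genes among all calls from 37.5% to 53.8% at day 25, from 33.7% to 51.6% at day 30 and from 35.7% to 52.8% over both days. Under it, 5 members rose at day 25, 4 rose and 1 fell at day 30, and the counts over both days did not change.

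**Figure D2:**
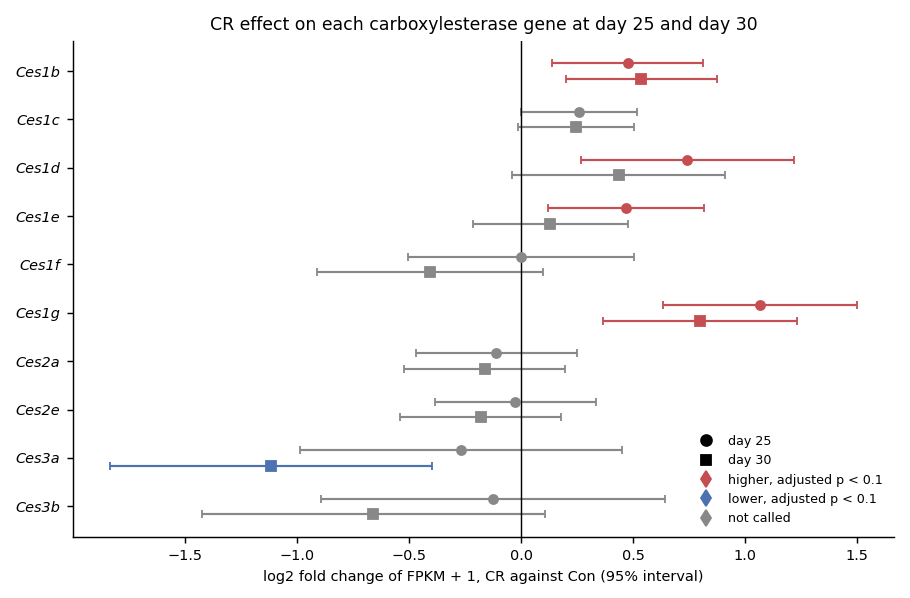
Log2 fold change of FPKM + 1 under CR (horizontal axis) with its 95% interval from limma, for each gene at day 25 (circles) and day 30 (squares), in red where called higher, in blue where called lower and in grey where not called. Ces1g lay farthest to the right at both days (1.07 and 0.80), and Ces3a at day 30 farthest to the left (-1.11).

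Among the Ces1 genes tied to lipid handling, Ces1g moved most. Its loss in mice is known to raise lipid synthesis and fat in the liver. At day 25, Ces1g was at 63.1, 69.0 and 61.8 FPKM in Con mice and at 151, 145 and 116 FPKM in CR mice. At day 30, it was at 82.0, 57.1 and 117 FPKM in Con mice and at 149, 139 and 142 FPKM in CR mice. The CR mice stood above the Con mice at each day, and the spread was widest in the Con mice of day 30, where the SD was 29.9 FPKM around a mean of 85.3. The log2 fold change was 1.07 at day 25 (SE 0.20, limma with Benjamini-Hochberg adjusted p = 0.00733) and 0.80 at day 30 (SE 0.20, adjusted p = 0.0185). Over both days it was 0.93, a 1.91-fold rise (SE 0.14, limma adjusted p = 0.000381). Without the Con mouse of day 30 at 117 FPKM, the log2 fold change at day 30 was 1.05. That mouse was also the one with adipocyte markers, with Adipoq at 0.80 and Cfd at 3.97 FPKM. Its level of Ces1d (313 FPKM) was the lowest of its group, and its level of Ces1f (219.6 FPKM) was level with another mouse (219.7 FPKM). A link between these markers and its Ces1g level was not tested. Ces1g kept its call at each day with any 1 of the 12 libraries left out, with log2 fold changes of 0.99 to 1.19 at day 25 and 0.55 to 1.05 at day 30.

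Ces1d is the major triacylglycerol hydrolase of the hepatocyte, which mobilizes stored fat for very-low-density lipoprotein. At day 25, Ces1d was at 311, 523 and 312 FPKM in Con mice and at 637, 718 and 522 FPKM in CR mice. Levels at day 30 were 400.3, 362 and 313 FPKM in Con mice and 513, 588 and 374 FPKM in CR mice. At day 25 the lowest CR mouse stood just under the highest Con mouse, and at day 30 the lowest CR mouse lay within the Con range. The log2 fold change was 0.74 at day 25 (SE 0.22, limma adjusted p = 0.0539), 0.44 at day 30 (adjusted p = 0.193) and 0.59 over both days (SE 0.15, adjusted p = 0.0123). The call at day 25 was lost without Con mouse 1, Con mouse 3, CR mouse 1 or CR mouse 2 of that day, with log2 fold changes down to 0.62 and adjusted p up to 0.17, while the call over both days held in each of 12 omissions.

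Ces1f hydrolyzes triacylglycerol too and is the immediate neighbour of Ces1g on the chromosome. At day 25, Ces1f was at 194, 239 and 167 FPKM in Con mice and at 222, 256 and 136 FPKM in CR mice. Levels at day 30 were 261, 219.7 and 219.6 FPKM in Con mice and 158, 234 and 146 FPKM in CR mice. Groups overlapped at both days, and no comparison called the gene. The 95% interval of the log2 fold change ran from -0.51 to 0.51 at day 25, from -0.91 to 0.10 at day 30 and from -0.56 to 0.16 over both days, so a rise of the size seen in Ces1g lay outside each of them.

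Ces1e, known as egasyn, binds beta-glucuronidase and holds it in the endoplasmic reticulum. At day 25, Ces1e was at 54.4, 61.0 and 52.4 FPKM in Con mice and at 92.8, 81.9 and 61.7 FPKM in CR mice. At day 30, it was at 68.6, 64.2 and 70.1 FPKM in Con mice and at 73.5, 90.5 and 61.2 FPKM in CR mice. Groups stood apart at day 25 by less than 1 FPKM and overlapped at day 30. Ces1e had a log2 fold change of 0.47 at day 25 (SE 0.16, limma adjusted p = 0.0879), 0.13 at day 30 (adjusted p = 0.607) and 0.30 over both days (SE 0.12, adjusted p = 0.0684). These calls lie near the threshold. That at day 25 was lost in 9 of 12 omissions of a library (all but CR mouse 3 of day 25 and CR mice 2 and 3 of day 30), where adjusted p reached 0.248, and that over both days in 6 of 12 (Con mouse 1, Con mouse 3, CR mouse 1 or CR mouse 2 of day 25, CR mouse 2 or the Con mouse with 64.2 FPKM of day 30), where it reached 0.14. Gusb, the gene of beta-glucuronidase, was at 14.8 ± 2.93 FPKM in Con mice and 12.3 ± 0.79 FPKM in CR mice of day 25 (SD, n = 3) and was not called over both days (log2 fold change -0.14, SE 0.09, limma adjusted p = 0.275).

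Ces1c and Ces1b are the closest pair of the Ces1 cluster. Ces1c is secreted and accounts for much of the carboxylesterase activity of mouse plasma, and it supplied 31.9% to 48.1% of the reads of the 10 genes. At day 25, Ces1c was at 1069, 1245 and 1029 FPKM in Con mice and at 1237, 1326 and 1432 FPKM in CR mice. At day 30, it was at 1146, 942 and 983 FPKM in Con mice and at 1309, 1184 and 1138 FPKM in CR mice. At each day a single CR mouse lay within the Con range. Ces1c had a log2 fold change of 0.26 at day 25 (SE 0.12, limma adjusted p = 0.202), 0.24 at day 30 (adjusted p = 0.182) and 0.25 over both days (SE 0.08, adjusted p = 0.0311), a 1.19-fold rise. The gene also passed at each day alone when libraries were scaled by the median ratio (adjusted p = 0.0943 and 0.0678) or quantile normalized (adjusted p = 0.0672 and 0.0646).

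At day 25, Ces1b was at 55.9, 58.4 and 54.0 FPKM in Con mice and at 73.5, 73.5 and 89.0 FPKM in CR mice. Levels at day 30 were 58.8, 34.9 and 45.2 FPKM in Con mice and 69.6, 66.4 and 62.7 FPKM in CR mice. The lowest CR mouse of either day stood above the highest Con mouse of either day. The log2 fold change was 0.48 at day 25 (SE 0.15, limma adjusted p = 0.0761), 0.54 at day 30 (SE 0.15, adjusted p = 0.0343) and 0.51 over both days (SE 0.10, adjusted p = 0.00324). The call at day 25 was lost with any 1 of the 6 mice of that day left out (adjusted p up to 0.233). That at day 30 was lost without the Con mouse with 34.9 FPKM, when the log2 fold change was 0.35, or without CR mouse 1. The call over both days held in each of 12 omissions, with log2 fold changes of 0.42 to 0.58.

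Ces2a and Ces2e encode pyrethroid hydrolases, which also act on other drugs and acylglycerols. At day 25, Ces2a was at 188, 278 and 169.6 FPKM in Con mice and at 174, 207 and 195 FPKM in CR mice, and at day 30 at 217, 236 and 226 FPKM in Con mice and at 223, 211 and 175 FPKM in CR mice. Ces2e was at 46.0, 43.5 and 42.8 FPKM in Con mice and at 48.1, 51.8 and 32.4 FPKM in CR mice of day 25. At day 30, Ces2e was at 59.4, 57.9 and 61.9 FPKM in Con mice and at 55.2, 61.7 and 42.7 FPKM in CR mice. The groups of both genes overlapped at each day, and neither gene was called. Over both days the 95% interval of the log2 fold change was -0.38 to 0.11 for Ces2a and -0.35 to 0.14 for Ces2e.

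Ces3a and Ces3b are liver esterases, and Ces3a is known as an esterase of male liver. At day 25, Ces3a was at 474, 603 and 351 FPKM in Con mice and at 444, 549.7 and 236 FPKM in CR mice. At day 30, it was at 564, 675 and 434 FPKM in Con mice and at 187, 387 and 223 FPKM in CR mice. Groups overlapped at day 25, and at day 30 all CR mice lay below all Con mice. The log2 fold change was -0.27 at day 25 (SE 0.33, limma adjusted p = 0.667), -1.11 at day 30 (SE 0.33, adjusted p = 0.0382) and -0.69 over both days (SE 0.25, adjusted p = 0.054). The call at day 30 was lost without the Con mouse with 675 FPKM (adjusted p = 0.121) or without CR mouse 1 (adjusted p = 0.154), with log2 fold changes of -0.97 and -0.90. That over both days was lost in 5 of 12 omissions (CR mouse 3 of day 25, CR mouse 1 or 3 of day 30, and the Con mice with 564 or 675 FPKM), where adjusted p reached 0.123. At day 25, the small difference turned positive, to 0.09, without CR mouse 3.

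Ces3b, the closest copy of Ces3a, was at 97.2, 123 and 66.7 FPKM in Con mice and at 90.3, 126 and 54.1 FPKM in CR mice of day 25. At day 30, Ces3b was at 79.5, 208 and 102 FPKM in Con mice and at 75.8, 83.7 and 66.7 FPKM in CR mice. Groups overlapped at both days, and a single Con mouse of day 30 stood far above the other two. The log2 fold change at day 30 was -0.66 with a 95% interval of -1.43 to 0.11 (limma adjusted p = 0.221), and without that mouse it was -0.26.

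Sums over the near-identical genes do not move when a read is placed on a wrong copy within the same sum. Shared reads that were dropped, or placed on a gene outside the sum such as Gm7208 for Ces2a, would still move them. Given as RPM, the reads on these genes per 1000000 reads of the library, the 6 Ces1 genes summed to 3530 ± 534 in Con mice and 4665 ± 255 in CR mice of day 25 (SD, n = 3), a ratio of 1.32, and every CR mouse lay above every Con mouse. At day 30, they summed to 3433 ± 334 in Con mice and 4116 ± 402 in CR mice, a ratio of 1.2 with overlap. The Ces2 genes differed little, with ratios of 0.924 and 0.896. The Ces3 genes summed to 1084 ± 292 RPM in Con mice and 947 ± 370 in CR mice of day 25, and to 1303 ± 336 and 647 ± 215 at day 30, where the ratio was 0.497 and the groups did not overlap. The sum of all 10 was 5094 ± 919 in Con mice and 6056 ± 645 in CR mice of day 25, and 5274 ± 352 and 5245 ± 594 at day 30. These 10 genes held 0.535% to 0.797% of the reads on genes in a library.

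**Figure D3:**
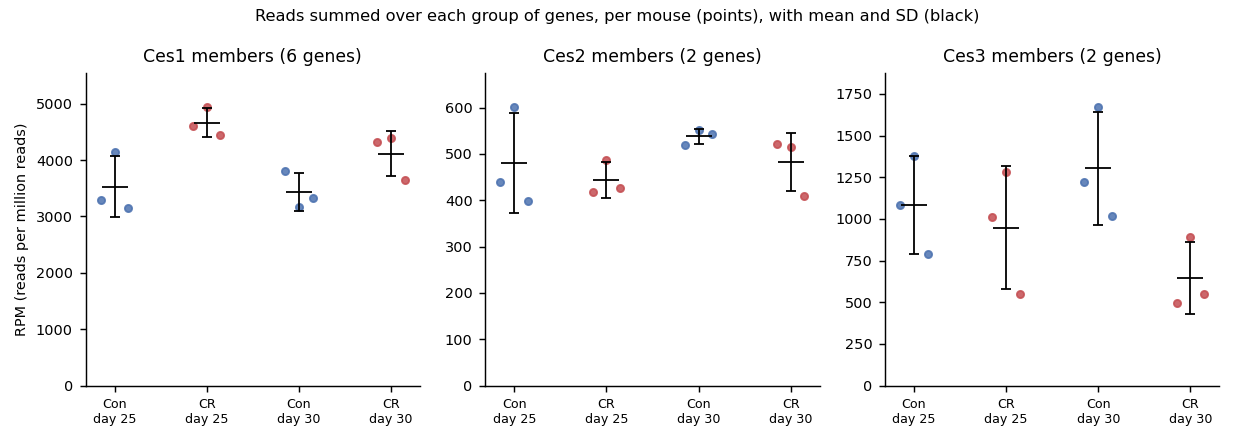
RPM (vertical axes, linear from 0), summed over the Ces1, Ces2 and Ces3 genes in every mouse, with the mean and SD of 3 mice in black. The Ces1 sum was higher in CR mice at day 25 (4665 against 3530 on average), and the Ces3 sum was lower in CR mice at day 30 (647 against 1303).

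Genes of the same cluster did not change alike. The ratio of each member to the next of the 10 in its cluster along the chromosome was taken within each mouse, where depth and scaling cancel, and CR was compared with Con by a 2-sided exact permutation of diet within each day. This comparison of 8 pairs was chosen after the values had been seen, and the smallest p it allows is 0.005. At an adjusted p under 0.1, 6 of the 8 ratios were called. How often ratios of other gene pairs would be called was not tested. Neighbouring pairs also share members, so the count is not shown to be particular to these genes. Relative to Ces1f, Ces1g was higher by 1.15 on the log2 scale under CR, with ratios of -1.94 to -0.91 in 6 Con mice and -0.82 to -0.05 in 6 CR mice (exact p = 0.005, adjusted over 8 pairs p = 0.0133). Relative to Ces1e, Ces1f was lower by 0.51, from ratios of 1.65 to 1.97 in Con mice to 1.10 to 1.65 in CR mice (exact p = 0.005, adjusted p = 0.0133). Relative to Ces1b, Ces1c was lower by 0.26, with no overlap between 4.25 to 4.75 in Con mice and 4.01 to 4.23 in CR mice (exact p = 0.005, adjusted p = 0.0133). These 3 calls held with any 1 library left out. The other 3 lay near the threshold. Ces1d was higher by 0.34 relative to Ces1c (exact p = 0.06), Ces1e was lower by 0.29 relative to Ces1d (exact p = 0.05) and Ces3a was lower by 0.59 relative to Ces2e (exact p = 0.04), with an adjusted p = 0.08 for each and overlap between the diets. The call of Ces1d over Ces1c was lost in 8 of 12 omissions of a library (any but Con mouse 2 of day 25, CR mouse 3 of day 30 and the Con mice of day 30 with 82.0 or 57.1 FPKM of Ces1g), where adjusted p reached 0.16. That of Ces1e over Ces1d was lost in 6 (Con mouse 1 or 3 or CR mouse 2 or 3 of day 25, CR mouse 1 or the Con mouse with 117 FPKM of Ces1g of day 30), where it also reached 0.16. That of Ces3a over Ces2e was lost in 4 (Con mouse 1 or 2 or CR mouse 3 of day 25, CR mouse 1 of day 30), where it reached 0.128. The ratios of Ces2e to Ces2a and of Ces3b to Ces3a were not called, with differences of 0.03 (exact p = 0.755) and 0.30 (exact p = 0.2).

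**Figure D4:**
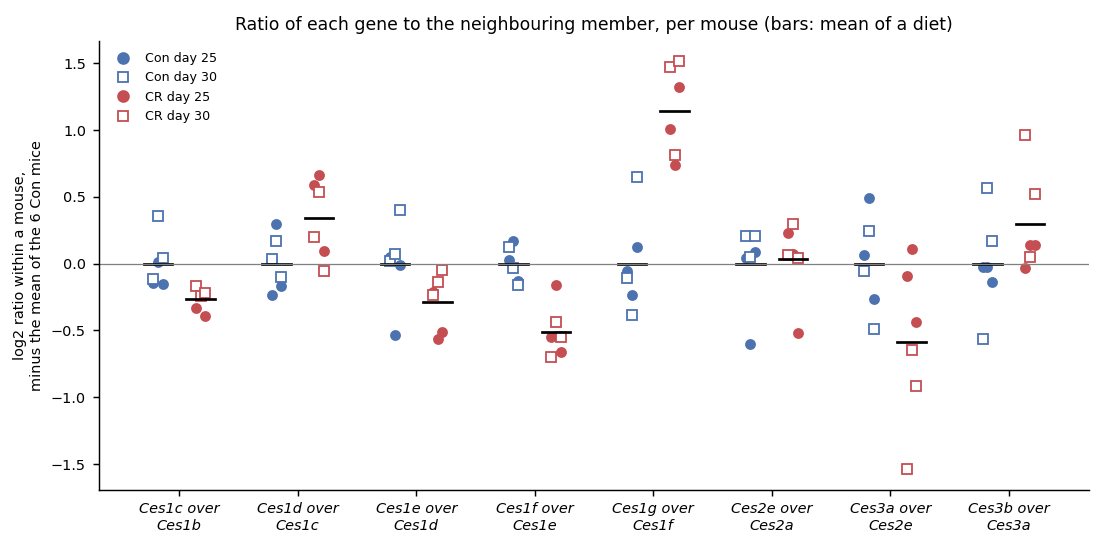
Log2 ratio of each gene to the preceding one of the 10 in its cluster on chromosome 8, within a mouse, minus the mean of the 6 Con mice (vertical axis), for Con (blue) and CR (red) mice at day 25 (filled circles) and day 30 (open squares), with bars at the mean of each diet. Ces1g over Ces1f was higher by 1.15 in CR mice, and Ces1f over Ces1e was lower by 0.51.

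Whether the CR effect differed between the days was tested directly. For none of the 10 genes was the difference called (limma, 0 of 10 also at an unadjusted p under 0.05 and 0 with voom on the recovered reads), while 0.00944% of all genes were. Ces3a had the largest difference, -0.85 on the log2 scale with a 95% interval of -1.86 to 0.17 (unadjusted p = 0.0947, limma adjusted p = 1), so its call at day 30 and the missing call at day 25 are not shown to differ. Between day 25 and day 30, no member was called in CR mice (0 at an unadjusted p under 0.05), against 0.321% of all genes, and none in Con mice (1 at an unadjusted p under 0.05, Ces2e), where 0% of all genes were called. Voom called no member in either comparison. In CR mice, the groups of Ces1b alone did not overlap between the days (lower at day 30 by 0.24 on the log2 scale, limma adjusted p = 0.693), while 14.7% of all genes did not overlap (6.32% higher and 8.39% lower at day 30). In Con mice, Ces2e and Ces1e stood higher at day 30 without overlap, where 11.6% of all genes did not overlap (7.23% higher and 4.42% lower), with log2 differences of 0.43 (limma adjusted p = 0.595) and 0.27 (adjusted p = 0.745).

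Within groups, mice differed in some of these genes far more than in others. The SD of log2(FPKM + 1) around the group means was 0.13 for Ces1c, 0.49 for Ces3a and 0.52 for Ces3b, and between 0.20 and 0.33 for the other members. Deviations from the group mean were positively correlated in 34 of the 45 pairs of genes, with a median Pearson r of 0.38 over the 12 mice. These values describe the same 12 libraries and share their depth and scaling, so they are no independent support for a link between genes. The highest were 0.90 for Ces1f with Ces3a, 0.88 for Ces1e with Ces2e and 0.87 for Ces1e with Ces1f, pairs that share no 100-base window. The close copies Ces1b with Ces1c reached 0.78 and Ces3a with Ces3b 0.74, and Ces1b with Ces3b had the lowest value, -0.72. CR mouse 3 of day 25 was the lowest of its group for Ces1d, Ces1e, Ces1f, Ces1g, Ces2e, Ces3a and Ces3b and the highest for Ces1b and Ces1c. CR mouse 2 of day 30 was the highest of its group for Ces1d, Ces1e, Ces1f, Ces2e, Ces3a and Ces3b.

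**Figure D5:**
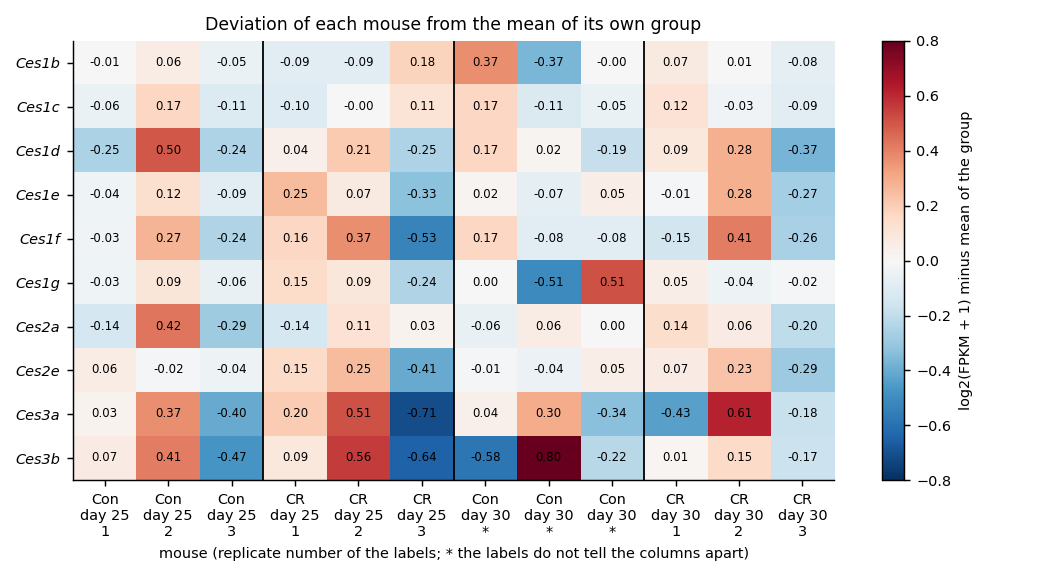
Difference of log2(FPKM + 1) from the mean of the mouse's own group (colour and printed value) for the 10 genes (rows) in the 12 mice (columns), with lines between groups. CR mouse 3 of day 25 was low for Ces1f (-0.53), Ces3a (-0.71) and Ces3b (-0.64) and high for Ces1b (0.18).

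Genes tested outside the family were ranked by how closely their deviations followed a member over the 12 mice. For Ces1c the closest were Serpinc1, which encodes antithrombin (r = 0.96), Rab40c (r = 0.95) and Ccdc28b (r = 0.95). For Ces1g they were Acss2, a cytosolic acetyl-CoA synthetase (r = 0.95), the kinase gene Camk1d (r = 0.94) and the aldehyde dehydrogenase gene Aldh1b1 (r = 0.94). They were picked as the highest values outside the family, among 10593 genes tested in all, and are given as a description. Under CR over both days, Acss2 rose (log2 fold change 0.45, SE 0.17, limma adjusted p = 0.0671) and Camk1d fell (-0.57, SE 0.15, adjusted p = 0.014), while Aldh1b1 was not called (0.12, SE 0.19, adjusted p = 0.662).

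RefSeq sequence of the 250 bases before the start site (GRCm38.p6, the mm10 assembly) was at hand for 7 of the 10 genes, all but Ces1d, Ces1f and Ces3a. The stretches of Ces1b and Ces1c are shown because these neighbours rose together and are nearly the same there, with 208 of 223 aligned bases identical (93.3%). They are given on the minus strand of the reference, at chr8:93079941-93080190 for Ces1b, before the downstream of its listed start sites, and at chr8:93131284-93131533 for Ces1c. Capitals mark bases that differ or have no partner in the alignment.
Ces1b: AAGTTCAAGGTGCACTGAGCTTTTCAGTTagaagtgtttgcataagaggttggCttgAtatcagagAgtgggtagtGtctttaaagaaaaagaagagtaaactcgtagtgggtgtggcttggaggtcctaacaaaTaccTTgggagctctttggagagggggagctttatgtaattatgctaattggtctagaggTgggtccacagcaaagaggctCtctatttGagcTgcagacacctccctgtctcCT
Ces1c: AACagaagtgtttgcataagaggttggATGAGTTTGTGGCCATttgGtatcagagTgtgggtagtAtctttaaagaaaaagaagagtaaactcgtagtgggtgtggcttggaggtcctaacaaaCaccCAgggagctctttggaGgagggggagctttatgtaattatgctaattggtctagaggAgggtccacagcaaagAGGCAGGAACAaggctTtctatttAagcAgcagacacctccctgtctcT
The corresponding stretch of Ces1g, the gene that rose most, lies at chr8:93337210-93337459 on the minus strand and aligned with Ces1c over 203 bases at 69.5% identity. Capitals mark TTTATA, which is TATAAA on the opposite strand, 26 bases before the start site.
Ces1g: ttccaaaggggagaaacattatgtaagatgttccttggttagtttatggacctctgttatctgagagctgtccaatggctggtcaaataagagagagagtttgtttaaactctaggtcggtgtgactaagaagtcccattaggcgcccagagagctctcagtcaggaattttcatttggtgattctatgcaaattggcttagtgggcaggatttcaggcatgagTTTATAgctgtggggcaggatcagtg
Motifs were searched in the 250 bases before the start site and a short stretch from the start site onward. The 8 member promoters belong to 7 genes, with Ces1b entered at both of its listed start sites. TATAAA, on either strand, was in 2 of 8 member promoters (Ces1g and Ces3b) and in 13.6% of 32851 promoters of the same length. The antioxidant response core TGACNNNGC, in 12.4% of all promoters, and the STAT5 motif TTCNNNGAA, in 8.3%, were in none of the 8. The nuclear receptor repeats DR1 and DR4 and the C/EBP motif, each in at most 0.18% of all promoters, were not in these windows.

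Of 10 further genes of the family, 9 were in the table and 2 passed the filter on low values. Ces2g rose over both days (log2 fold change 0.37, SE 0.08, limma adjusted p = 0.00468), from 8.56 ± 0.74 to 11.5 ± 1.05 FPKM at day 25 and from 11.6 ± 1.99 to 15 ± 0.82 FPKM at day 30 (SD, n = 3). The gene was called higher at day 25 (0.39, limma adjusted p = 0.0667) and at day 30 (0.35, adjusted p = 0.0655). Ces2c was called lower in the comparison over both days (-0.45, SE 0.18, limma adjusted p = 0.0807), but only day 30 showed a fall. It was at 2.80 ± 0.86 and 2.81 ± 1.06 FPKM in Con and CR mice of day 25 (log2 fold change -0.005, limma adjusted p = 0.993). At day 30 it was at 8.02 ± 1.64 and 3.80 ± 0.27 FPKM and was called lower (-0.89, limma adjusted p = 0.012). Its call over both days was lost under median-ratio scaling (adjusted p = 0.118) and in 10 of 12 omissions of a library. Ces1a, Ces2b, Ces2d-ps, Ces2f, Ces2h and Ces4a stayed at or below 1.38 FPKM in every mouse, and Ces5a was listed at 0.

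Other esterases and lipid hydrolases showed no shared direction. Of 27 genes listed, 26 were tested, and over both days 4 rose, 7 fell and 15 were not called. The 42.3% called lie near the 40.6% of all genes tested (14.5% higher and 26.1% lower). The median log2 fold change was 0.02 beside -0.05 for all genes. The rises were those of Abhd6, a monoacylglycerol lipase (0.74, limma adjusted p = 0.00108), Pnpla2, the triglyceride lipase ATGL (0.32, adjusted p = 0.0451), the paraoxonase gene Pon1 (0.27, adjusted p = 0.0302) and the serine hydrolase gene Bphl (0.31, adjusted p = 0.0272). The falls were those of the epoxide hydrolases Ephx1 (-0.69, limma adjusted p = 0.00205) and Ephx2 (-0.65, adjusted p = 0.000187), the lipoprotein lipase gene Lpl (-0.93, adjusted p = 0.00184), the hormone-sensitive lipase gene Lipe (-0.45, adjusted p = 0.00166), the lysosomal acid lipase gene Lipa (-0.20, adjusted p = 0.0938), Pon2 (-0.26, adjusted p = 0.0232) and Pon3 (-0.26, adjusted p = 0.0165). The call of Lipa was lost under median-ratio scaling (limma adjusted p = 0.279) and in 9 of 12 omissions of a library, and that of Pon1 under quantile normalization (adjusted p = 0.15). Arylacetamide deacetylase, Aadac, an abundant esterase of the same organelle, was at 224 to 277 FPKM on average in the 4 groups and was not called (log2 fold change 0.07, SE 0.08, limma adjusted p = 0.521).

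Of 12 transcription factors known to act on carboxylesterase genes, 3 rose, 2 fell and 7 were not called over both days, with a median log2 fold change of -0.03. The 41.7% called lie near the 40.6% of all genes tested, so the counts are no result about these factors. Nr1i2, the xenobiotic receptor PXR, rose most, from 31.7 ± 5.51 to 53.6 ± 5.30 FPKM at day 25 and from 27.7 ± 2.88 to 50.3 ± 4.34 FPKM at day 30 (SD, n = 3). Its log2 fold change over both days was 0.80 (SE 0.09, limma adjusted p = 6.96e-05). Cebpb rose (0.74, limma adjusted p = 0.000289), as did Ppara, the fatty acid receptor (0.34, adjusted p = 0.0405). Ppara was called at day 25 (0.54, limma adjusted p = 0.0469) but not at day 30 (0.15, adjusted p = 0.542). Cebpa (-0.47, limma adjusted p = 0.0135) and Nfe2l2, which encodes NRF2 (-0.24, adjusted p = 0.0513), fell. Cebpa was called at day 30 (-0.75, limma adjusted p = 0.00559) but not at day 25 (-0.19, adjusted p = 0.464). The call of Nfe2l2 was lost under median-ratio scaling (limma adjusted p = 0.176), under quantile normalization (adjusted p = 0.12) and in 2 of 12 omissions of a library. Nr1i3, the receptor CAR, was not called (0.28, SE 0.14, limma adjusted p = 0.162), nor was Hnf4a (0.16, SE 0.09, adjusted p = 0.179).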

How the data were processed

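Liver RNA of 12 mice was sequenced in paired-end reads on a single lane. Per the submitters' processing notes, the authors used CASAVA 1.8.2, FastQC, BWA, DESeq2 and the mm10 build. The authors deposited FPKM values, made with HOMER per the file headers from reads on exons, with a single transcript per gene. FPKM are not counts, so the count test named in the methods was replaced by limma 3.58.1 (R 4.3.3) on log2(FPKM + 1), for genes that reached 1 FPKM in 3 or more libraries. A pseudocount of 1 understates changes of low genes. A model of the 4 groups gave each comparison, and a second model with day as covariate gave CR against Con over both days. Tests are 2-sided and p-values are adjusted over all genes tested. Depth was recovered from low values (100% of 1500 per library were whole reads within 0.1 read). The model was tested on simulated data before use.

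The columns of the 3 Con mice of day 30 could be tied to their group but not to single labels. The labels number the mice of a group and do not say that equal numbers are pairs. For Con and CR mice of day 25 with equal numbers, deviations from group means correlated at 0.368, 0.306 and 0.106. The mean was 0.26, against -0.131 for different numbers. Deviations of 3 mice from their own mean depend on each other, so this check cannot show pairing. A model with the number as a block kept the 4 members called there. The genes named are the 10 members, the genes called over both days in 3 lists written by symbol (of the further family members, all that passed the filter), and for Ces1c (highest mean) and Ces1g (largest change) the 3 genes with the closest deviations. One gene of the list of transcription factors is not reported here and was left out of that list's counts. The members and lists were chosen with earlier results of these data known. The neighbour ratios were chosen after seeing the data, as were Gusb, Aadac, Nr1i3 and Hnf4a among uncalled list genes. Coding sequences came from the reference transcripts, matched by accession for all 10 members, and promoters from RefSeq. Other settings tried were the pseudocount, the filter, the scaling (median ratio, TPM, quantile normalization), the moderation, the thresholds, the libraries in the model, the block, each library left out and, chosen after seeing the data, voom on recovered reads.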

Additional observations from a re-analysis of the deposited data

How the results depend on the processing

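The 10 genes were followed at each day and over both days, 30 results under 690 alternative settings in all. Direction and side of the threshold were kept in 613, a call was lost in 57, a call was gained in 6 and the sign turned in 14, each time for a gene that was not called. At day 25, the count of 4 called genes became 1 (Ces1g) with no filter on low values, when 18362 genes entered the adjustment, 1 at an adjusted p under 0.05 and 1 when a 2-fold change was required too. At day 30, the count of 3 became 5 with median-ratio scaling and 1 with the 2-fold change required. Over both days, the count of 6 became 0 with it. Leaving out each library in turn gave 1 to 4 called genes at day 25 and 1 to 4 at day 30. Sign changes at day 25 were those of Ces2e with median-ratio scaling (0.034) and of Ces1f with TPM (-0.017) and quantile normalization (-0.083). With single libraries left out, the log2 fold change at day 25 ran from -0.185 to 0.268 for Ces1f, from -0.254 to 0.102 for Ces2a, from -0.154 to 0.176 for Ces2e, from -0.522 to 0.088 for Ces3a and from -0.405 to 0.197 for Ces3b. At day 30 it ran from -0.011 to 0.268 for Ces1e. The ratio of Ces2e to Ces2a ran from -0.08 to 0.142. The cause was not tested. The replicate block at day 25 kept 4 called genes and changed no other call. For CR mice of day 25 and day 30 with equal numbers, these correlations were -0.382, 0.299 and 0.078, which cannot settle pairing either. The correlations are those of deviations from group means. A block by number in CR mice called 0 members, as did the model without it. No paired analysis was possible at day 30 because the columns of the Con mice carry no number of the labels. Summed levels moved by less than the spread between mice under other scalings. With single libraries left out, the log2 ratio of the sums at day 25 ran from -0.473 (without CR mouse 2) to 0.081 (without CR mouse 3) for the Ces3 genes, from -0.231 (without Con mouse 3) to 0.081 (without Con mouse 2) for the Ces2 genes, and from 0.148 to 0.403 without the same Con mice for all 10. At day 30 it ran from -0.22 to -0.054 for the Ces2 genes (without CR mouse 1 or 3) and from -0.085 to 0.076 for all 10 (without CR mouse 2 or 3). With 3 mice per group, the 95% intervals of these genes span 0.52 to 1.53 on the log2 scale at a single day, which limits what could be seen in Ces3a and Ces3b most.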
